A study of Mus musculus with 17 samples.

Results

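The casein kinase 1 family was examined through 6 genes, Csnk1g1, Csnk1g2, Csnk1g3, Csnk1a1, Csnk1d and Csnk1e, of 19938 genes measured on 17 arrays. The genes were taken by symbol from the array's annotation, and each was measured by 1 probe set that carried no other gene's name. The family was selected on the difference of Csnk1g1 when a dominant-negative form of Brg1 was induced, which at 3.01 on the log2 scale (8.05-fold) was the highest of all 19938 genes. The genes next in that order, Auts2 and Dhx40, stood at 2.16 and 2.12. The values of that comparison are therefore a description of Csnk1g1 and carry no test here, and its 5 paralogs are set beside it.

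Casein kinase 1 enzymes are serine and threonine kinases that act without a second messenger and are steered mainly by where they are anchored and by earlier phosphorylation of their substrates. The alpha enzyme, encoded by Csnk1a1, primes beta-catenin for GSK3 within the destruction complex and so restrains Wnt signalling. The delta and epsilon enzymes, from Csnk1d and Csnk1e, phosphorylate the PER proteins of the circadian clock and also Dishevelled, whereas the gamma enzymes, from Csnk1g1, Csnk1g2 and Csnk1g3, are held at membranes by a lipid anchor and phosphorylate the Wnt co-receptor LRP6.

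RNA came from 3134 cells, a mouse mammary epithelial line that carries a tetracycline-regulated transactivator (3134Tet (7110)). The control line held the transactivator alone, and each of 3 further lines also held a stably integrated, Flag-tagged dominant-negative Brg1 (from Smarca4, the ATPase of SWI/SNF complexes), Chd4 (an ATPase of the NuRD complex) or Snf2h (from Smarca5, the ATPase of ISWI complexes). Stocks of all lines were kept in tetracycline at 5 µg/ml, and cells were then plated in charcoal-dextran-treated serum with the drug (repressed) or without it (induced) for 48 h. Arrays numbered 2 (repressed) and 3 (induced) for the control line, and 2 in each state for each of the dnBrg1, dnChd4 and dnSnf2h lines. The transactivator was thus induced in every line, the control line included. Whether a line is 1 clone, and whether replicates are separate cultures, is not stated in the labels; p-values then reflect only the spread between these arrays, which may be technical. In bulk RNA, fewer cells that use a gene and less RNA per cell cannot be told apart.

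Values are log2 signals, a difference is the induced mean minus the repressed mean unless stated, and a gene is called changed when its limma p, adjusted over 19938 genes, is under 0.05. Some control libraries went against their labels. Across genes, the library labelled control repressed replicate 1 was closest to control induced replicate 2 (r = 0.995), while control repressed replicate 2 was closest to the library labelled control induced replicate 1 (r = 0.994). Results are therefore also given for the 15 arrays left without control repressed replicate 1 and without control induced replicate 1, as labelled, where the control repressed group is a single array assumed to vary like the others. The arrays left out were picked on these same expression values, so control calls in that fit are not read as a test of induction. Chd4 was 1.82 higher in induced than in repressed dnChd4 cells, whereas Smarca4 in dnBrg1 (0.12, limma adjusted p = 0.772) and Smarca5 in dnSnf2h (-0.24, limma adjusted p = 0.482) were not called. Whether these probe sets read the integrated forms was not tested. Before induction, Chd4 was already 0.51 higher in dnChd4 than in control cells (limma adjusted p = 0.0499). Smarca5 in repressed dnBrg1 differed by -0.67 from repressed dnChd4 cells (limma adjusted p = 0.0174). Of 8 epithelial markers, Epcam and Krt19 were in the dimmest 30% of genes and the other 6, among them Krt8, Krt18, Cldn3 and Cdh1, were not, and none of 8 mesenchymal markers was. By mean over 17 arrays, the epithelial markers ran from 4.12 (Epcam) to 6.29 (Krt8) and the mesenchymal ones from 6.14 (Thy1) to 12.71 (Vim). Cdh1, at 5.19, was below every array median (5.48 to 5.63).

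The start of Csnk1g1 is shown first because no other gene differed as much in dnBrg1, and the start of Csnk1g2 is set beside it as the gamma paralog for which RefSeq promoters were also at hand. Both are the 250 bases before the annotated start on the plus strand of build GRCm38.p6, at chr9:65908760-65909009 for Csnk1g1 and chr10:80622530-80622779 for Csnk1g2. Capitals mark exact matches, on either strand, to CCGGAAGT, the core bound by many ETS-family factors.
Csnk1g1: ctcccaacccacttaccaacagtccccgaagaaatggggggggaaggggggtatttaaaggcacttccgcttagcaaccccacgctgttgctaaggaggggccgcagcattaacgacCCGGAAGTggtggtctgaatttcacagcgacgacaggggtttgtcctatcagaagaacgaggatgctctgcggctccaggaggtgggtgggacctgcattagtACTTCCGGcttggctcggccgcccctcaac
Csnk1g2: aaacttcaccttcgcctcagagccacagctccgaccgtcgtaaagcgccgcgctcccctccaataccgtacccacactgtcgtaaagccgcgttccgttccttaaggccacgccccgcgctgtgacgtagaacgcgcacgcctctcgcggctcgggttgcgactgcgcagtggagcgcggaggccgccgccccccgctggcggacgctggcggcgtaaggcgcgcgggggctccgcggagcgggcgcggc

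The Csnk1g1 window held 2 matches to CCGGAAGT, beginning 133 and 30 bases before the start, 1 on each strand, and 2.88% of 32851 RefSeq promoter windows of the same length held at least 1. The printed Csnk1g2 window, the first listed for that gene, held none, and neither did a second Csnk1g2 window at chr10:80629406-80629655. That second window was 57.2% G and C with 5 CpG, and held no GC box and 1 match to a cAMP response element, 46 bases before the start. A search of both strands for GGGCGG, the GC box, found 1 match in each printed window, 12 bases before the start of Csnk1g1 and 64 before that of Csnk1g2, against a share of 32.7% over all windows. No match to a CCAAT box, a TATA box (TATAAA), an E-box (CACGTG), an AP-1 site (TGACTCA) or a cAMP response element (TGACGTCA) was found for Csnk1g1, and its listed matches do not overlap one another. The Csnk1g1 window was 58.4% G and C with 13 CpG, and the printed one of Csnk1g2 was 71.2% with 41 CpG, against medians of 52.4% and 6 CpG. RefSeq windows were matched for 3 of the 6 genes, with Csnk1e as the third, and none of the Csnk1e windows held CCGGAAGT. These matches describe the letters of the windows and nothing about binding.

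Csnk1g1 was high in 1 group of 8. The induced dnBrg1 arrays read 10.13 and 10.21, and the repressed dnBrg1 arrays read 7.30 and 7.02. The control arrays read 7.58 and 6.97 repressed and 7.24, 7.44 and 7.46 induced. In dnChd4 cells Csnk1g1 read 7.24 and 7.17 repressed and 7.52 and 7.42 induced, and in dnSnf2h cells it read 7.06 and 7.46 repressed and 7.53 and 7.49 induced. The induced dnBrg1 arrays thus stood well clear of the other 15, which all lay between 6.97 and 7.58.

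**Figure D1:**
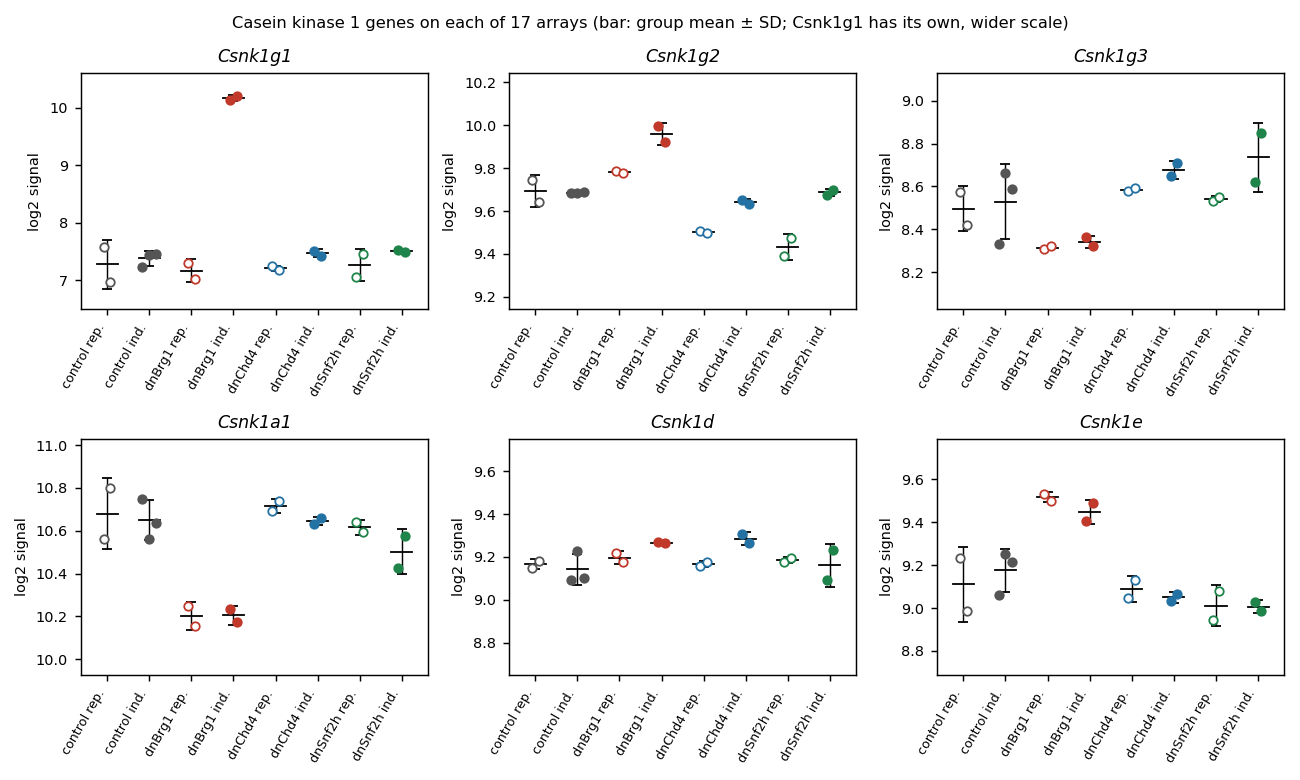
Log2 signal of each casein kinase 1 gene on each of 17 arrays (points), with the group mean and SD (bars), in the repressed (open) and induced (filled) state of the 4 lines. Csnk1g1 has its own, wider scale: its induced dnBrg1 arrays read 10.13 and 10.21 and the other 15 arrays lie between 6.97 and 7.58, while Csnk1a1 is low and Csnk1e and Csnk1g2 are high on all 4 dnBrg1 arrays.

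By group, Csnk1g1 averaged 10.17 ± 0.05 (SD, n = 2) in induced dnBrg1 cells, and the next group, induced dnSnf2h, averaged 7.51 ± 0.03 (SD, n = 2), which is 2.66 lower. Below it came induced dnChd4 (7.47 ± 0.07, n = 2), induced control (7.38 ± 0.13, n = 3), repressed control (7.28 ± 0.43, n = 2), repressed dnSnf2h (7.26 ± 0.28, n = 2), repressed dnChd4 (7.21 ± 0.05, n = 2) and repressed dnBrg1 (7.16 ± 0.20, n = 2). Each neighbour in this order below induced dnBrg1 differed from the next by less than the larger SD of the pair, and their ranges overlapped. The repressed dnBrg1 level of Csnk1g1 was thus at the low end of the order, and within the range of the other lines. Leaving out any 1 of the 17 arrays moved the dnBrg1 difference of Csnk1g1 no further than 2.87 to 3.15.

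Some markers moved in the same comparison. Of 8 mesenchymal and fibroblast markers, 7 were lower in induced dnBrg1 cells, 5 of them by at least 1.5-fold, and their summed log2 level per array was 74.26 to 74.56 repressed and 69.51 to 70.38 induced. The summed level of 6 myoepithelial and basal markers was 33.80 to 34.23 repressed and 31.85 to 32.03 induced. That of 8 epithelial markers was 43.02 to 43.98 repressed and 42.71 to 43.34 induced. Macrophage markers (4 of 6 in the dimmest 30% of genes) summed to 28.59 to 28.99 repressed and 27.80 to 27.99 induced, adipocyte markers (3 of 4) to 18.29 to 18.54 and 17.96 to 18.39, and milk genes (1 of 4) to 18.78 to 18.96 and 18.75 to 19.09. Their part in the Csnk1g1 difference was not tested.

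In dnBrg1 cells, Csnk1g2 differed by 0.18, Csnk1d by 0.07, Csnk1g3 by 0.03, Csnk1a1 by 0.00 and Csnk1e by -0.07, and in the order of 19938 differences, highest first, they stood at 3300, 5591, 7072, 8161 and 11704. The 2 induced dnBrg1 arrays lay above both repressed arrays for 4 of the 6 genes (Csnk1g1, Csnk1g2, Csnk1g3 and Csnk1d), below them for Csnk1e, and among them for Csnk1a1. With 2 arrays a side, 53.4% of all genes had groups that did not overlap in this line.

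**Figure D2:**
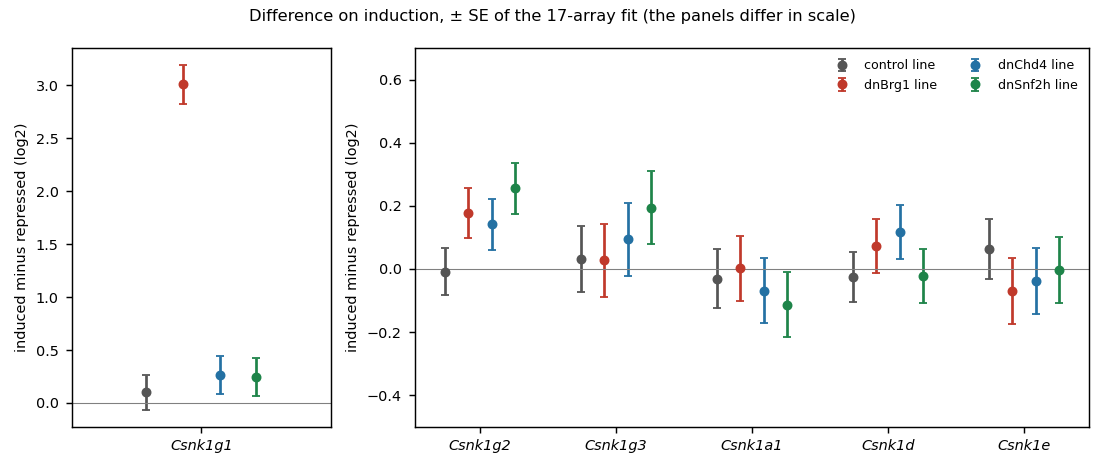
Induced minus repressed log2 signal in each line (points) with the standard error of the 17-array limma fit (bars), Csnk1g1 on the left and its 5 paralogs on a narrower scale on the right. Csnk1g1 stands at 3.01 in dnBrg1 and between 0.10 and 0.26 in the other lines, and every paralog lies between -0.11 and 0.26.

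In the other lines, which did not enter the choice of Csnk1g1, no member was called with 17 arrays. For the control induction this was 0 of 6 genes (0 also at an unadjusted limma p under 0.05), where 0% of all genes were called. In dnChd4 it was 0 of 6 (0 unadjusted) against 0.0953% of all genes, and in dnSnf2h 0 of 6 (1 unadjusted, Csnk1g2) against 0.00502%. These shares are for the adjusted threshold. Unadjusted counts, here and below, stand without the share of all genes at that threshold, so nothing is read from them. The members' median difference was 0.01 in control, 0.11 in dnChd4 and 0.10 in dnSnf2h, beside medians over all genes of -0.00, -0.03 and -0.01. Groups did not overlap for 5 of 6 members in dnChd4, where 60.1% of all genes did not, for 4 of 6 in dnSnf2h (46.4% of all genes) and for 0 of 6 in control (12.7%).

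Cell type markers also differed in these lines. Of the 6 marker lists, the myoepithelial and basal list had 1 gene at least 1.5-fold higher and 1 lower in both dnChd4 and dnSnf2h. These were Acta2, smooth muscle actin (2.56 in dnChd4, 2.32 in dnSnf2h), and Krt14, a basal keratin (-1.15 and -1.29). Neither was called with 17 arrays, and both were with 15, where Acta2 also rose (1.93) and Krt14 also fell (-1.06) in control. Past 1.5-fold in dnChd4 lay Col1a1 (0.68), a mesenchymal marker, and Cd68 (1.03), a macrophage marker, and in dnSnf2h the mesenchymal Col1a2 (-0.59) and the macrophage marker Cd14 (-0.70). No other marker of the 6 lists passed 1.5-fold in these lines with 17 arrays, and none did in control. Summed mesenchymal markers were 73.77 to 75.14 repressed and 73.99 to 74.23 induced in dnChd4, and 74.55 to 74.60 and 71.51 to 73.44 in dnSnf2h. Summed myoepithelial and basal markers were 34.92 to 35.32 and 36.14 to 36.91 in dnChd4, and 35.07 to 35.38 and 35.55 to 36.19 in dnSnf2h. The part of these markers in the differences of members, neighbours and pathway genes was not tested.

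Csnk1g1 was 0.26 higher in induced than repressed dnChd4 cells (SE 0.180; limma adjusted p = 0.547), and both induced arrays lay above both repressed ones. With array weights that value passed (limma adjusted p = 0.0462), with the dnChd4 arrays alone it did not (limma adjusted p = 0.0511), and with 15 arrays it did not (limma adjusted p = 0.169). In dnSnf2h cells the difference was 0.24 (SE 0.180; limma adjusted p = 0.553), and the induced values of 7.53 and 7.49 lay just above the higher repressed value of 7.46. The dnChd4 difference minus the dnSnf2h difference was 0.02 for Csnk1g1 (SE 0.255; limma adjusted p = 1.000), so the data do not separate these lines. For all 6 genes that contrast lay between -0.11 and 0.14, with 0 of 6 called (0 unadjusted) against 0.0401% of all genes.

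In control cells the Csnk1g1 difference depended on which libraries were used. It was 0.10 with all 5 control arrays (SE 0.165; limma adjusted p = 0.994). In the 15-array set, the remaining repressed array read 6.97 and the induced arrays 7.44 and 7.46, a difference of 0.48 (SE 0.150; limma adjusted p = 0.0249). That made 1 of 6 members called, where 26.6% of all genes were. Leaving out only the library labelled control repressed replicate 1 gave 0.41, and leaving out only control repressed replicate 2 gave -0.20. In the 15-array fit, then, Csnk1g1 was also higher after induction in the line without any dominant-negative remodeler, by 0.48 beside 3.01 in dnBrg1.

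The other gamma genes lay within 0.26 of their repressed level in every line with 17 arrays. Csnk1g2 read 9.39 and 9.48 in repressed and 9.68 and 9.70 in induced dnSnf2h cells, with no overlap. The difference of 0.26 (SE 0.0802) missed the threshold with 17 arrays (limma adjusted p = 0.324) and passed with 15 (SE 0.0846; limma adjusted p = 0.0455), where 18.4% of all genes passed. In dnChd4 cells Csnk1g2 read 9.51 and 9.50 repressed and 9.65 and 9.64 induced, a difference of 0.14 (SE 0.0802; limma adjusted p = 0.479). Csnk1g2 in control cells read 9.75 and 9.64 repressed and 9.68, 9.68 and 9.69 induced, a difference of -0.01 that was 0.05 with 15 arrays. Csnk1g3 lay between 8.31 and 8.85 on all arrays, and its highest difference was 0.19 in dnSnf2h (SE 0.116; limma adjusted p = 0.481), resting on induced values of 8.62 and 8.85.

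The alpha, delta and epsilon genes stayed within 0.12 of their repressed level in every line with 17 arrays. Csnk1a1 was 0.07 lower in dnChd4 and 0.11 lower in dnSnf2h cells, each with non-overlapping arrays, and neither was called (lowest limma adjusted p of the pair 0.638). Csnk1d ran from 9.09 to 9.31 over all 17 arrays, and its highest difference was 0.12 in dnChd4 (SE 0.0856; limma adjusted p = 0.566). Csnk1e differed by -0.04 in dnChd4 and -0.00 in dnSnf2h, with overlapping arrays. In control cells Csnk1a1 moved from -0.03 to -0.20 and Csnk1e from 0.06 to 0.25 when 15 arrays were used, and neither was called.

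What set the dnBrg1 line apart for 3 paralogs was its level, in both states. Csnk1a1 read 10.25 and 10.16 in repressed and 10.24 and 10.17 in induced dnBrg1 cells. Elsewhere Csnk1a1 read 10.56 and 10.80 (control repressed), 10.75, 10.56 and 10.63 (control induced), 10.69 and 10.74 (dnChd4 repressed), 10.63 and 10.66 (dnChd4 induced), 10.64 and 10.59 (dnSnf2h repressed) and 10.43 and 10.58 (dnSnf2h induced). The 4 dnBrg1 arrays were therefore the lowest of 17, with no overlap. Csnk1e went the other way, at 9.53 and 9.50 in repressed and 9.41 and 9.49 in induced dnBrg1 cells, against 8.94 to 9.25 on the other 13 arrays. Those 13 values were 9.24 and 8.99 (control repressed), 9.06, 9.25 and 9.21 (control induced), 9.05 and 9.13 (dnChd4 repressed), 9.03 and 9.07 (dnChd4 induced), 8.94 and 9.08 (dnSnf2h repressed) and 9.03 and 8.99 (dnSnf2h induced). Csnk1g2, at 9.79 and 9.78 in repressed and 10.00 and 9.92 in induced dnBrg1 cells, was also above its other 13 values, which ended at 9.75.

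In all, 2 of 5 paralogs (Csnk1g2 and Csnk1e) had 4 dnBrg1 arrays wholly above the other 13 and 1 (Csnk1a1) wholly below, where 6.62% of all genes did either, 3.59% above and 3.03% below. Csnk1g3 was low in the dnBrg1 line, at 8.31 to 8.36, and overlapped the library labelled control induced replicate 1 at 8.33. Csnk1d did not stand apart, with repressed dnBrg1 values of 9.22 and 9.17 inside the range of the other arrays.

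These level differences were tested between repressed lines for the 5 paralogs, a choice made after their values were seen. Against repressed dnChd4 cells, repressed dnBrg1 cells held less Csnk1a1, by -0.51 (SE 0.103; limma adjusted p = 0.0126), and more Csnk1e, by 0.43 (SE 0.104; limma adjusted p = 0.0371). This was 1 paralog higher and 1 lower of 5, where 4.03% of all genes were called, 2.2% higher and 1.83% lower. Csnk1g2 was 0.28 higher and not called with 17 arrays (limma adjusted p = 0.0767), and was with 15 (limma adjusted p = 0.0326), where 15.2% of all genes were. Against repressed dnSnf2h cells, Csnk1a1 was lower by -0.41 (limma adjusted p = 0.0421), and Csnk1e and Csnk1g2 were higher by 0.51 (limma adjusted p = 0.0151) and 0.35 (limma adjusted p = 0.0282), 3 of 5 paralogs against 3.89% of all genes (2.06% higher, 1.83% lower). The 2 comparisons share the dnBrg1 arrays. Repressed dnBrg1 was not tested against repressed control. Repressed control means were 10.68 for Csnk1a1, 9.11 for Csnk1e and 9.69 for Csnk1g2, beside 10.20, 9.52 and 9.78 in repressed dnBrg1. The gap for Csnk1g2 was thus 0.09, and its repressed means were lower in dnChd4 (9.50) and dnSnf2h (9.43). Csnk1g3 and Csnk1d were called in neither, at -0.27 and 0.03 against dnChd4 and -0.23 and 0.01 against dnSnf2h.

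These calls depended on the arrays and settings used. Without either repressed dnBrg1 array no paralog was called in either comparison. Leaving out either repressed dnChd4 array gave 0 calls against dnChd4, and leaving out repressed dnSnf2h replicate 1 gave 0 calls against dnSnf2h; each of these fits has 1 array in a repressed group. The differences moved less than the calls: against dnChd4, over 25 other settings, Csnk1a1 ran from -0.56 to -0.47 and Csnk1e from 0.39 to 0.47, and against dnSnf2h Csnk1a1 ran from -0.46 to -0.37, Csnk1e from 0.44 to 0.57 and Csnk1g2 from 0.30 to 0.39. Against dnChd4 the Csnk1a1 call was lost in 4 of these settings and the Csnk1e call in 13, among them the replicate block, trended and robust eBayes and median centring. Against dnSnf2h the Csnk1e call was lost in 3, the Csnk1a1 call in 14 and the Csnk1g2 call in 10, the last pair also with the replicate block, with trended and robust eBayes and with only the compared groups. Every direction was kept for Csnk1a1, Csnk1e and Csnk1g2 under all settings tried. Summed epithelial markers were 43.02 to 43.98 in repressed dnBrg1, 43.36 to 43.61 in repressed dnChd4 and 41.94 to 43.44 in repressed dnSnf2h arrays, and mesenchymal markers 74.26 to 74.56, 73.77 to 75.14 and 74.55 to 74.60. The part of either list in these differences was not tested.

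Among the repressed lines that did not involve dnBrg1, no member was called. Against repressed control cells, 0 of 6 were called in dnChd4 (1 unadjusted, Csnk1g2) where 2.63% of all genes were, and 0 of 6 in dnSnf2h (1 unadjusted) where 9.35% were. The closest was Csnk1g2, which was lower in repressed dnSnf2h than in repressed control cells by -0.26 (SE 0.0802; limma adjusted p = 0.0604). These 2 comparisons share the control arrays, and without the library labelled control repressed replicate 1 the Csnk1g2 value was -0.21. Between repressed dnChd4 and repressed dnSnf2h cells, 0 of 6 were called (0 unadjusted), as were 0% of all genes.

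The members did not vary as 1 group across arrays. Over 17 arrays Csnk1g1 had a Pearson r of 0.72 with Csnk1g2, 0.50 with Csnk1e, 0.45 with Csnk1d, -0.33 with Csnk1g3 and -0.59 with Csnk1a1, a description in which the induced dnBrg1 arrays weigh heavily. Over the 13 arrays of the other lines the values were 0.55, 0.46, 0.15, 0.57 and -0.77. Csnk1g3 changed sign between these sets, and Csnk1a1 was opposite to Csnk1g1 in both.

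The genes whose pattern was most like that of Csnk1g1 differed with the arrays used. Over all 17 arrays the highest correlations were those of Auts2 (r = 0.960), Mfsd13a (0.946), Serpini1 (0.939), Lrrc27 (0.903) and Akip1 (0.898). Each was highest in induced dnBrg1 cells, which a choice by correlation with Csnk1g1 over these arrays favours. Auts2, whose protein takes part in a variant polycomb complex, read 4.98 and 4.91 in repressed and 6.97 and 7.23 in induced dnBrg1 cells and stayed between 4.61 and 4.98 on the other 13 arrays. Serpini1, which encodes neuroserpin, an inhibitor of tissue plasminogen activator, went from a mean of 4.46 to 5.92 in dnBrg1, and Mfsd13a from 6.68 to 8.24. Lrrc27 went from 5.86 to 6.70 and Akip1 from 8.41 to 9.11.

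Over the 13 arrays without the dnBrg1 line the 5 most like genes were Dennd1a (r = 0.970), Fchsd2 (0.960), Trp53inp1 (0.955), Dnajc5 (0.951) and Fam171b (0.948), none of them in the first list. Dennd1a activates the small GTPase Rab35, Fchsd2 acts in endocytosis and Dnajc5 encodes the cysteine string protein, a co-chaperone of vesicles. The dnBrg1 means of Dennd1a were 7.50 repressed and 7.80 induced, a difference of 0.30. Trp53inp1, a p53-induced regulator of autophagy, read 7.58 in the library labelled control repressed replicate 1 and 5.59 in replicate 2, the same order as Csnk1g1 in those libraries.

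**Figure D3:**
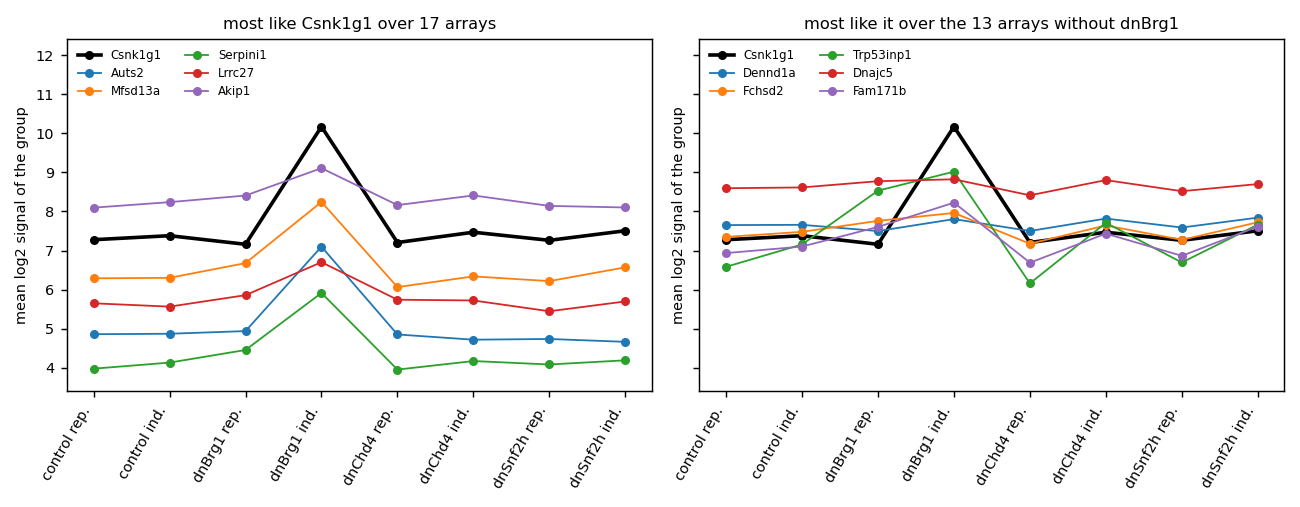
Mean log2 signal in the 8 groups for Csnk1g1 (black) and the 5 genes with the highest Pearson correlation with it over 17 arrays (left) or over the 13 arrays without dnBrg1 (right). Every gene of the left set peaks with Csnk1g1 in induced dnBrg1 cells, where the Csnk1g1 mean is 10.17. In the right set Fchsd2 (7.96), Trp53inp1 (9.02), Dnajc5 (8.82) and Fam171b (8.23) are also highest there. Dennd1a moves from 7.50 to 7.80 in dnBrg1 and is highest in induced dnSnf2h cells (7.84).

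Genes next to Csnk1g1 on chromosome 9 are described beside it. The 10 nearest measured genes before it lay between -0.61 and 0.90 in dnBrg1 and the 10 after it between -0.10 and 0.48. The nearest after it, Ppib, which encodes the endoplasmic reticulum cyclophilin B, differed by 0.17, and the next, Snx22, by 0.13. Of the 20 neighbours, 3 differed by at least 1.5-fold in dnBrg1, where 4.9% of all genes did, and all 3 lie before Csnk1g1. They were Oaz2, an inhibitor of polyamine synthesis (0.90), Trip4, a transcription coactivator (0.60), and Pclaf, a PCNA-binding factor of replicating cells (-0.61).

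**Figure D4:**
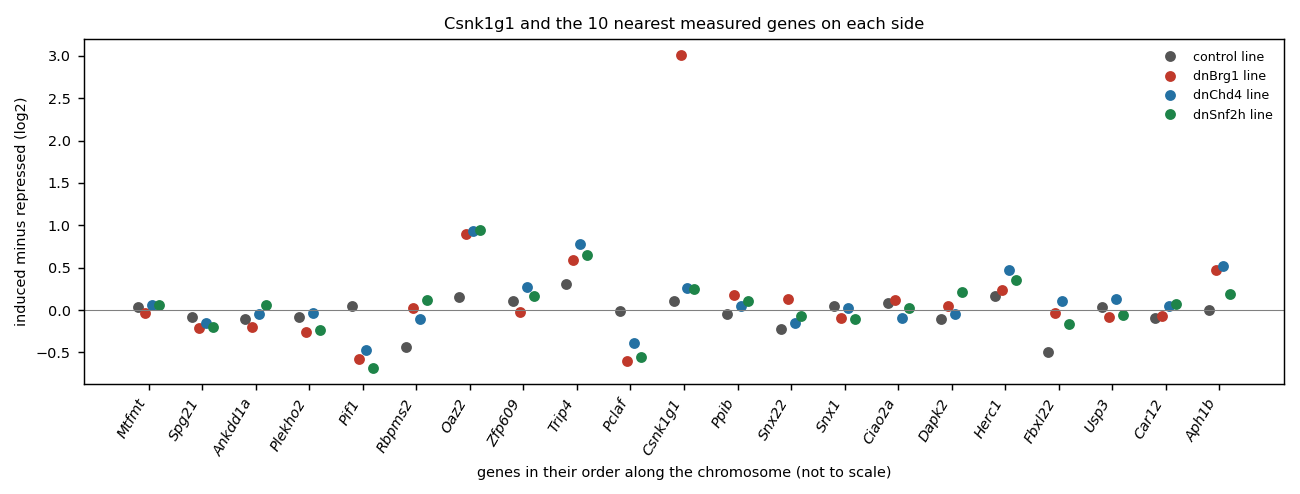
Induced minus repressed log2 signal in each line for Csnk1g1 and the 10 nearest measured genes on each side, in chromosomal order and not to scale. Csnk1g1 stands at 3.01 in dnBrg1, and Oaz2 lies at 0.90 in dnBrg1, 0.93 in dnChd4 and 0.95 in dnSnf2h.

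Those 3 neighbours of Csnk1g1 differed by like amounts in the other dominant-negative lines. Oaz2 stood at 0.93 in dnChd4 and 0.95 in dnSnf2h, Trip4 at 0.78 and 0.65, and Pclaf at -0.39 and -0.56. With 17 arrays no neighbour was called in control, dnChd4 or dnSnf2h cells (unadjusted limma p under 0.05 for 2, 1 and 1 of 20). With 15 arrays 6 of 20 neighbours were called in control, 6 in dnChd4 and 5 in dnSnf2h, where 26.6%, 18.8% and 18.4% of all genes were. In that fit Trip4, Oaz2 and Herc1, a large ubiquitin ligase, rose and Pclaf and Pif1, a DNA helicase, fell in all 3 of these lines. There, too, Plekho2 fell in control alone by the threshold (-0.39, limma adjusted p = 0.0426) and Aph1b, a gamma-secretase subunit, rose in dnChd4 (0.53, limma adjusted p = 0.00419), differences between lines not having been tested. For Oaz2 the 15-array control difference was 1.33, against 0.15 with 17 arrays.

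Genes that work with casein kinase 1, together with other superfamily, Csnk2 and Fam20 genes, were followed through 8 lists of 101 entries, 95 of them measured. With 17 arrays 0 of 95 were called by limma in control, dnChd4 or dnSnf2h cells (unadjusted 7, 17 and 15), and 0 in dnBrg1 (12 unadjusted), where 0.341% of all genes were called after adjustment. The unadjusted counts have no share of all genes beside them and are not read as a result. With 15 arrays 43 of 95 passed in control (26 higher, 17 lower), 28 in dnChd4 (17 and 11) and 25 in dnSnf2h (12 and 13), which is 45.3%, 29.5% and 26.3% against 26.6%, 18.8% and 18.4% of all genes. In dnBrg1 19 passed (8 higher, 11 lower), 20.0% against 14.9%. The median difference over the 95 genes lay between -0.03 and 0.03 in every line with 17 arrays, close to that over all genes. In the 15-array fit a single repressed array carries every control difference, and the arrays left out were picked on these same values. Control counts and differences of that fit, here and below, are a description and not a test.

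Counts, differences and calls of single lists are given for 15 arrays, where each gene named was past the threshold in the line named (highest limma adjusted p 0.0335, for Nr1d1 in dnChd4). Of 20 Wnt receptors and co-receptors, the class that gamma enzymes act on, 9 rose and 2 fell in control, 5 and 1 in dnChd4, 3 and 1 in dnSnf2h and 1 and 0 in dnBrg1. Within that class the gamma substrate named above is LRP6. For these lists, here and below, shares of all genes by direction are not given, and those in either direction stand in the paragraph before. The count of any single list is therefore not read as a result. At most 2 genes are named for each list and line, so a gene not given for a line may also have passed there. The Frizzled receptor gene Fzd3 rose by 1.56 in control, 1.10 in dnChd4 and 0.89 in dnSnf2h. Fzd6 rose by 0.85 in control and 0.67 in dnChd4, Fzd5 by 0.56 in dnSnf2h, and Lgr4, a receptor for R-spondins, by 0.42 in dnBrg1. With 17 arrays the control value of Fzd3 was 0.32 and that of Fzd6 0.12.

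Of 18 Wnt transducers and destruction complex genes, 6 rose and 2 fell in control, 5 and 0 in dnChd4, 3 and 0 in dnSnf2h and 4 and 1 in dnBrg1. Btrc, which encodes the ubiquitin ligase subunit that recognises phosphorylated beta-catenin, rose by 0.96 in control and 0.80 in dnChd4. Caprin2, whose protein binds LRP6, rose by 1.42 in control and 0.51 in dnSnf2h, and the Dishevelled gene Dvl3 rose by 0.54 in dnChd4 and 0.60 in dnSnf2h. In dnBrg1 the destruction complex scaffold gene Apc rose by 0.50, whereas Amer1, whose protein brings APC to the membrane, differed by -0.59. Of 15 nuclear factors and common targets of the pathway, 3 rose and 3 fell in control, 3 and 2 in dnChd4, 1 and 3 in dnSnf2h and 1 and 3 in dnBrg1. Myc was lower in every line, at -1.16 in dnChd4, -1.29 in dnSnf2h, -0.70 in dnBrg1 and -2.03 in control. Ccnd1, which encodes cyclin D1, was lower in control (-1.28), dnBrg1 (-0.85) and dnSnf2h (-0.68), and the TCF factor gene Tcf7l1 was 0.57 higher in dnChd4. The 17-array control value was -0.28 for Myc, -0.24 for Ccnd1, 0.42 for Caprin2 and 0.26 for Btrc.

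Of 11 clock genes, the setting of Csnk1d and Csnk1e, 2 rose and 3 fell in control, 2 and 2 in dnChd4, 1 and 3 in dnSnf2h and 1 and 3 in dnBrg1. The repressor gene Nr1d1 fell by 1.00 in dnSnf2h and was also lower in dnBrg1 (-0.70) and dnChd4 (-0.51). Dbp, a clock output factor, was lower in control (-1.10) and dnSnf2h (-0.76). Arntl, which encodes BMAL1, rose by 0.85 in control, its partner gene Clock rose by 0.54 in dnChd4, and the period gene Per3 differed by -0.57 in dnBrg1. Of 13 Hedgehog genes, 4 rose and 2 fell in control, 1 and 2 in dnChd4, 2 and 2 in dnSnf2h and 0 and 2 in dnBrg1. The co-receptor gene Gas1 was lower in all 4 lines, at -1.10 in dnChd4, -0.93 in dnSnf2h, -1.41 in dnBrg1 and -0.90 in control. The receptor gene Ptch1 was lower in dnBrg1 (-0.92), dnChd4 (-0.87) and dnSnf2h (-0.81), and Kif7, a kinesin of the pathway, rose by 0.91 in control. With 17 arrays the control values were -0.45 for Dbp, 0.14 for Arntl, -0.11 for Gas1 and 0.30 for Kif7.

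Of 8 FAM83 genes, whose proteins anchor casein kinase 1, none rose, and 3 fell in control and 1 in each other line. Fam83d was lower in every line, at -0.52 in dnChd4, -0.79 in dnSnf2h, -0.69 in dnBrg1 and -1.07 in control, and Fam83f stood at -0.43 in control. Of 5 other kinases of the casein kinase 1 superfamily, 1 rose and 2 fell in control, dnChd4 and dnSnf2h each, and 0 and 1 in dnBrg1. The tau tubulin kinase gene Ttbk2 rose by 1.00 in control and 0.76 in dnChd4. Vrk1 was lower in control (-0.88), dnBrg1 (-0.38), dnChd4 (-0.59) and dnSnf2h (-0.56), and Vrk2 in dnSnf2h (-0.56). Of 5 genes of the Csnk2 and Fam20 families, 1 and 0 passed in control, 0 and 1 in dnChd4, 1 and 1 in dnSnf2h and 1 and 0 in dnBrg1. Fam20b rose by 0.39 in control, 0.41 in dnBrg1 and 0.37 in dnSnf2h, and Fam20a stood at -0.48 in dnChd4 and -0.56 in dnSnf2h. With 17 arrays the control values were -0.18 for Fam83d, -0.23 for Fam83f, 0.18 for Ttbk2, -0.01 for Vrk1 and -0.01 for Fam20b.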

How the data were processed

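Each of 17 RNA samples was hybridised to 1 Affymetrix Mouse Gene 1.0 ST array. The deposited table holds log2 values, as judged from their range of 2.02 to 14.86. The authors processed the arrays with Affymetrix Expression Console, per the submitters' processing notes; the sources used here do not give its version, normalization or build, and arrays have no read depth. Of 35557 probe sets, 21789 had 1 symbol, 1621 several and 12147 none; the probe set with the highest mean was kept for 999 genes with several, which left 19938. Groups came from titles. limma 3.58.1 (R 4.3.3) fitted 1 mean for each of 8 groups to unscaled values, with Benjamini-Hochberg adjustment over genes and a threshold of 0.05. The fit was tested on simulated data.

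Members and lists were chosen with earlier results of these data known. Named by rule were the members, the 10 measured neighbours on each side of Csnk1g1 (RefSeq order), the 5 most correlated genes, and, per list and line, up to 2 genes with the largest 15-array differences among those past the threshold. Alternatives were only the groups compared, a replicate block, array weights, trended and robust eBayes, quantile normalization, median centring, no genes of the dimmest 30% (mean under 4.77), each array left out and 15 arrays. Repressed dnBrg1 contrasts were added after values were seen.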

Additional observations from a re-analysis of the deposited data

How the results depend on the processing

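Of 750 values of single members under alternatives, 676 kept their direction and side of the threshold, 7 newly passed it, 44 lost it and 23 turned sign, the farthest to -0.201. The number of members called went from 0 to 1 with 15 arrays in control and dnSnf2h, and from 0 to 1 with array weights in dnChd4. Paralogs called in repressed dnBrg1 minus repressed dnChd4 (2 of 5) were 1 with trended and robust eBayes, 4 with array weights, 1 with median centring and 0 to 2 with an array left out. Against repressed dnSnf2h (3 of 5) they were 1 with only the compared groups, 1 with trended eBayes and 0 to 3 with an array left out. With the replicate number as a block, 1 paralog was called in each of these comparisons. Except with 15 arrays, the share of all genes called under each alternative is not given. Counts of members and paralogs under these alternatives are therefore not read as a result. Against repressed dnChd4, Csnk1g2 was called as well with 15 arrays. Replicate numbers were not treated as pairs. The reason was that same-numbered deviations of a line's states correlated at -0.743 for control, 0.0160 for dnBrg1, 0.135 for dnChd4 and 0.313 for dnSnf2h. Pathway list genes called went from 0 to 43 (control), 19 (dnBrg1), 28 (dnChd4) and 25 (dnSnf2h) with 15 arrays. Quantile normalization turned Csnk1g1 in dnChd4 minus dnSnf2h to -0.0554, Csnk1g2 in control to 2.42e-05, Csnk1a1 in control to 0.00763 and Csnk1d in repressed dnBrg1 minus dnChd4 to -0.00433 and minus dnSnf2h to -0.0309, where median centring gave -0.0396; 15 arrays turned Csnk1g2 in control to 0.0451. With an array left out, control differences ran from -0.201 to 0.406 for Csnk1g1, -0.0604 to 0.0439 for Csnk1g2, -0.0439 to 0.130 for Csnk1g3, -0.148 to 0.0871 for Csnk1a1 and -0.0590 to 0.188 for Csnk1e. Likewise Csnk1g1 in dnChd4 minus dnSnf2h ran from -0.182 to 0.219, Csnk1d in dnSnf2h from -0.0938 to 0.0476 and in repressed dnBrg1 minus dnSnf2h from -0.0102 to 0.0324, and Csnk1e from -0.0809 to 0.00345 in dnChd4 and -0.0706 to 0.0640 in dnSnf2h. Some of these fits hold fewer samples, and the cause of the changes was not tested. Differences within the dnBrg1, dnChd4 and dnSnf2h lines were the same with 15 arrays, while their standard errors changed. For Myc in dnChd4 the difference was -1.16 in both fits, with an SE of 0.649 for 17 arrays and 0.128 for 15. Rescaling moved no median over all genes by more than 0.0931. Groups of 2 or 3 arrays limit the precision.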
